A study of Mus musculus with 9 samples.

Results

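The 36 genes described here are a list of proliferation genes, transcripts that are abundant while a cell copies its DNA and divides. The list names them by Ensembl identifier, and each of the 36 was found among the 52636 genes of the deposited table and was detected. Members were split by role into 13 genes of DNA replication in S phase and 23 genes of G2 and mitosis. A cell was called cycling when the 36 genes together held 3 or more unique molecular identifiers (UMIs, each standing for 1 captured RNA molecule). Cells were thyroid cells of male C57BL/6 mice, 7 days after an intraperitoneal injection of antibody. RW mice received an isotype control against ragweed at 40 mg/kg, aJ1aJ2 mice received antibodies against the Notch ligands Jag1 and Jag2 at 20 mg/kg each, and in aN1aN2 mice the receptors were targeted, Notch1 at 5 mg/kg and Notch2 at 10 mg/kg. There were 3 samples in each group, each a pool of thyroids from 6 mice, and the age is given as 10 to 14 weeks in the labels and as 10 to 12 weeks in the design text. The authors' deposited labels sort 10186 cells into 16 classes under short codes. Here T2 was taken as the thymocyte class (624 cells) and 12 were taken as thyroid-resident (7064 cells): Th1, Th2 and Th3, the endothelial EC1 to EC4, F, M, P, S and SM.

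A dividing cell first builds its replication machinery. The Mcm proteins open the DNA, Pcna is the sliding clamp of the polymerases, and Rrm1, Rrm2 and Tyms supply nucleotides. In G2 and mitosis the kinase Cdk1 with its cyclins Ccna2, Ccnb1 and Ccnb2 drives chromosome condensation and spindle assembly, and the ligase partners Ube2c and Cdc20 then have the cyclins destroyed. Developing T cells of the thymus, an organ close to the thyroid, divide in bursts between rearrangements of their receptor genes, whereas cells of the adult thyroid divide rarely.

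Promoters of such genes share short words. Those bound by E2F factors are typical of replication genes, and the cell cycle homology region (CHR) together with CCAAT boxes is typical of mitotic genes. The 250 bases before the start site of 2 replication genes that hold an E2F word and of 4 mitotic genes that hold a CHR word are shown, from RefSeq (GRCm38.p6), because the results below turn on the split between these roles. Capitals mark matches on either strand to the E2F words TTTGGCGC, TTTCCCGC, TTTGCCGC, TTTCGCGC, TTTGGCGG and TTTCCCGG, to the CHR words TTTGAA and TTCGAA, and to CCAAT.
Mcm5, chr8:75109259-75109508 (+ strand): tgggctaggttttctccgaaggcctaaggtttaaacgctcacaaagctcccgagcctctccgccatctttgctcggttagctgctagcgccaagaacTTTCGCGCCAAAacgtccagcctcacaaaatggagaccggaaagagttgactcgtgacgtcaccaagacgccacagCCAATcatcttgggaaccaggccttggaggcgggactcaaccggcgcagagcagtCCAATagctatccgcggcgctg
Mcm6, chr1:128359706-128359955 (- strand): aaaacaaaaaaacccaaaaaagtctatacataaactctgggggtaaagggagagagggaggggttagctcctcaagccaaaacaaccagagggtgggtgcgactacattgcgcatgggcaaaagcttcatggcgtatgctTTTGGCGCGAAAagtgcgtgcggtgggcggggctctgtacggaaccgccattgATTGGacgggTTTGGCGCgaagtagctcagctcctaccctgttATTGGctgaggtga
Top2a, chr11:99024190-99024439 (- strand): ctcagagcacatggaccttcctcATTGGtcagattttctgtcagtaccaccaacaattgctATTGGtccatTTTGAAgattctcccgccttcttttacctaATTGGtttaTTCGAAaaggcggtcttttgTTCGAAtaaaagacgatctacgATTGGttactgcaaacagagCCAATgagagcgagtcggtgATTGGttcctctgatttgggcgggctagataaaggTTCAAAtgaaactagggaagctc
Cdk1, chr10:69352913-69353162 (- strand): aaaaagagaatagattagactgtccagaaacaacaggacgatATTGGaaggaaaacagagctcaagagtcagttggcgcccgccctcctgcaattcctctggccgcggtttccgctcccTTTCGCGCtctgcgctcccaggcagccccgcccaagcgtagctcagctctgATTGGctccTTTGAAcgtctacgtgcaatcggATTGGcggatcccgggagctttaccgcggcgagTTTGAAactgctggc
Cdc20, chr4:118437344-118437593 (- strand): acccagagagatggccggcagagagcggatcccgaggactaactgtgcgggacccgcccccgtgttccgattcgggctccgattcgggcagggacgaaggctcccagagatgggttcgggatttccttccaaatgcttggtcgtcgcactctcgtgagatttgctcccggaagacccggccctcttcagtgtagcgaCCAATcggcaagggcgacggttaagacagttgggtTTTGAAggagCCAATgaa
Ube2c, chr2:164769679-164769928 (+ strand): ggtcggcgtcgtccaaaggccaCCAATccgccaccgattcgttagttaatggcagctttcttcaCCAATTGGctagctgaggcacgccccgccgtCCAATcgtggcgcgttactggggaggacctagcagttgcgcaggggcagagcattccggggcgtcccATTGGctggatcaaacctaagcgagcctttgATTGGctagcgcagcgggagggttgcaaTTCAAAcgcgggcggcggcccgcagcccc
Promoters were found for 31 of the 36 members, in 35 windows (Mcm4, Ccna2, Tpx2, Aurkb and Smc4 had no entry). CCAAT stood in 17 of 19 windows of G2 and mitosis members, in 10 of 16 windows of replication members and in 33.8% of all 32851 windows of the same length. A CHR word stood in 10 of the 19 mitotic windows, in 3 of the 16 replication windows and in 17.1% of all windows, and windows with both a CHR word and CCAAT were 10 of the 19, 2 of the 16 and 6.02% of all. An E2F word stood in 3 of the 16 replication windows, in 2 of the 19 mitotic windows and in 3.22% of all windows. CCAAT lies inside none of the other words, while E2F words can overlap each other on opposite strands, as in Mcm5. A match describes the letters only.

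The samples held 583 to 1805 cells and 3013324 to 11880793 UMIs each, and single cells held 500 to 131347 UMIs. T2 cells carried the defining thymocyte genes at high level, with Rag1 (receptor gene rearrangement) at 1164 CPM (counts per 1000000 UMIs of the label), Dntt at 1209.6 CPM and Cd8b1 at 1673.5 CPM, while of the 10 mature T and NK cell genes Gzmb, Klrd1, Klrb1c and Ncr1 were at 0, Gzma stood at 169 CPM (120.4 in T1), Nkg7 at 8.60 CPM and Trbc2, which thymocytes share, at 5084 CPM. Th1 held the thyrocyte gene Tg at 92030.1 CPM and M held the macrophage gene C1qa at 4359.5 CPM. P held the parathyroid gene Pth at 397330 CPM. Th3 held the C cell gene Calca at 27510 CPM and the muscle gene Acta1 at 5581 CPM, beside Tg at 79768 CPM. The lymphocyte label T1 held both mature T and NK cell genes (10 genes summed, 3844 CPM, with Trbc2 at 1755 CPM and Nkg7 at 405 CPM) and thymocyte genes (13 summed, 1899.8 CPM). The sum of the 10 does not set T1 apart, since in T2 Trbc2 alone stood higher. T2 cells came from 5 of the 9 samples, with 272 in RW 2, 285 in aJ1aJ2 3, 39 in aJ1aJ2 4 and 14 each in RW 3 and aJ1aJ2 1. RW 1 and the 3 aN1aN2 samples held 0 T2 cells. With 1 RW sample at the minimum of 20 cells, treatment was not tested in T2. Cell barcodes were shared between libraries 15 times, in 30 cells, of which 6 were cycling and 0 were T2.

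In the 2 samples with most T2 cells, thymocytes held most of the proliferation RNA. T2 held 8526 of the 11425 member UMIs of RW 2 and 13386 of the 18505 of aJ1aJ2 3, but 800 of 3077 in aJ1aJ2 4, 241 of 4506 in RW 3, 96 of 1483 in aJ1aJ2 1 and none in the other 4 samples. Over all samples T2 made up 6.13% of cells and 3.68% of all UMIs, but 51.4% of the 44810 UMIs of the 36 genes and 73.4% of the UMIs of the 20 mitotic members (the 23 G2 and mitosis genes without Hmgb2, Smc2 and Smc4, a subset chosen after their levels outside T2 were seen). The 36 genes summed to 9911 CPM in T2 against 375 CPM in the thyroid-resident labels pooled. In single samples with 20 or more T2 cells the sum was 9608 CPM in RW 2, 10849.9 CPM in aJ1aJ2 3 and 6128 CPM in aJ1aJ2 4. No sample of a thyroid-resident label with 20 or more cells reached these levels, as the plot by label shows. The labels were made from the same cells, so this contrast is a description with no test.

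**Figure D1:**
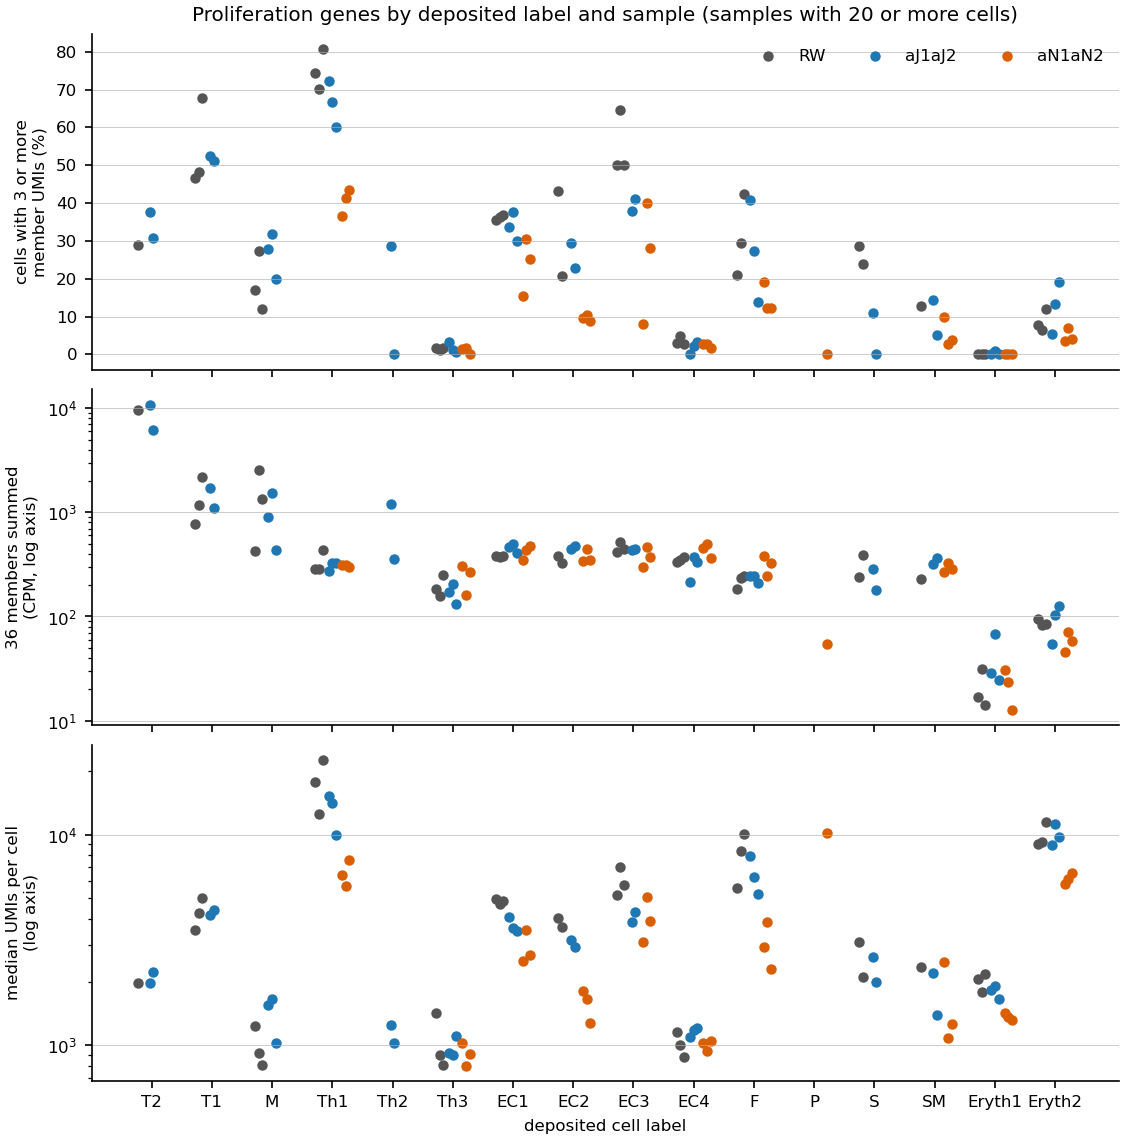
Each point is 1 sample with 20 or more cells of a label; the panels give the percentage of cells with 3 or more member UMIs, the summed level of the 36 genes (CPM, log axis) and the median UMIs per cell (log axis), coloured by group. T2 stands highest in the summed level, at 6128 to 10849.9 CPM. The highest single percentage and the highest median UMIs per cell are in Th1 (36.7% to 80.7% over its samples), whose lower samples overlap other labels.

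By the count of cycling cells, T2 did not stand apart. By 3 or more UMIs, 208 of 624 T2 cells were cycling (33.3%, exact binomial 95% interval 29.6% to 37.2%), and the shares were 79 of 272 in RW 2 (29.0%), 107 of 285 in aJ1aJ2 3 (37.5%), 12 of 39 in aJ1aJ2 4 (30.8%), 4 of 14 in RW 3 and 6 of 14 in aJ1aJ2 1. Of the thyroid-resident cells 1812 of 7064 passed the same count (25.7%, interval 24.6% to 26.7%), including the aN1aN2 samples that held 0 T2 cells. Within samples the order varied: the thyroid-resident share was 31.2% in RW 2, 32.9% in RW 3 and 32.5% in aJ1aJ2 1, and 31.6% in aJ1aJ2 3 and 20.1% in aJ1aJ2 4, so that T2 lay lower in both RW samples and higher in the 3 aJ1aJ2 samples. Thyrocytes of label Th1 exceeded the thymocytes, with 723 of 1169 (61.8%). The median Th1 cell held 12553 UMIs and the median T2 cell 1992.5, and the same genes summed to only 334 CPM in Th1. Eryth1, red cells that should lack these transcripts, gave a background of 1 in 997 cells (0.1003%) at a median of 1682 UMIs. Intervals here and below cover counting error only.

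At equal depth T2 stood above Th1. With every cell thinned at random to 2000 UMIs, and shallower cells left out, 128 of 310 T2 cells had 3 or more member UMIs (41.3%), against 2.28% of 1142 Th1 cells, 5.31% of 1469 EC1 cells and 4.28% of 4319 thyroid-resident cells. This left out 314 T2 cells. Thinned to 500 UMIs, which keeps every cell, 41.2% of T2 cells and 15.8% of thyroid-resident cells still had 1 member UMI or more. M stood between them, with 23.5% of its 378 cells at full depth, 11.6% at 2000 UMIs and 1378 CPM. In M, 5 cells held 1133 of the 1915 member UMIs, the other 373 cells stood at 609 CPM, and samples with 20 or more cells ranged from 424 CPM (RW 1) to 2580 CPM (RW 2). T1 gave 52.1% of its 409 cells at full depth, 25.1% at 2000 UMIs and 1487 CPM.

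Among the other thyroid-resident labels, EC3 reached 41.1% of 365 cells at a median of 4624 UMIs, EC1 32.9% of 1603 cells at 3994 UMIs, F 23.2% of 538 cells at 5632.5 UMIs and EC2 22.7% of 409 cells at 2757 UMIs. P gave 15.6% of 77 cells, SM 10.1% of 248, S 9.84% of 193, Th2 6.57% of 137, EC4 2.68% of 1046 and Th3 1.33% of 901. EC4, low by count, held the 36 genes at 381 CPM, near the 411 CPM of EC1. P held them at 95.7 CPM and Th2 at 666 CPM, on 117 UMIs. Th2 also held thymocyte genes (13 summed) at 791 CPM, from 0 to 3478 CPM by sample, and the neutrophil genes S100a8 and S100a9 at 9224 and 8820.0 CPM, both from aJ1aJ2 3 and aN1aN2 2, and their part in its level was not tested.

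**Figure D2:**
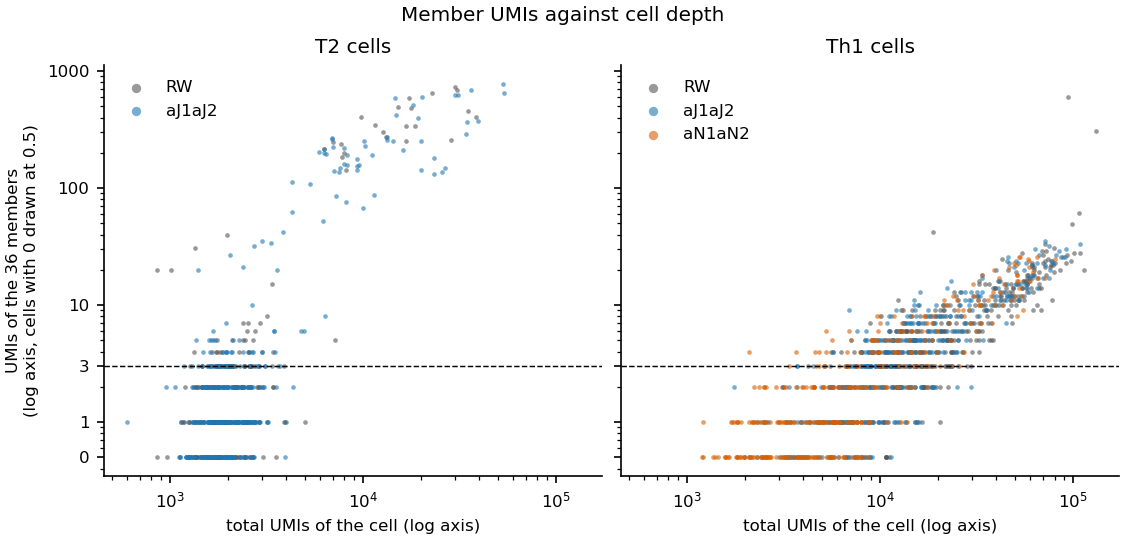
Each point is 1 cell of T2 (left) or Th1 (right), with the UMIs of the 36 members (log axis, cells with 0 drawn at 0.5) against all UMIs of the cell (log axis), coloured by group; the dashed line is the count of 3. In Th1 the members climb with depth along a band, apart from 2 RW 3 cells at 606 and 308 member UMIs, while in T2 a separate arm of cells reaches up to 777 member UMIs.

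Within T2 the members' RNA was held by few cells. There were 141 cells with 0 member UMIs, 167 with 1 and 108 with 2, just outside the count, and 69 with 3 and 25 with 4, just inside it. A further 86 cells (13.8% of T2) held 20 or more, with a median of 212.5 UMIs spread over 27 of the 36 genes, and these cells carried 96.2% of the members' UMIs in T2. The 122 cells with 3 to 19 carried 2.10% over a median of 2 genes. The cells with 20 or more were also the largest libraries of the label, with a median of 9917 UMIs (861 to 53491) against 1853.5 for cells with 0 to 2. Of the 81 T2 cells above 4000 UMIs, 74 held 20 or more member UMIs, and of the 543 at or below it 12 did. Thymocyte genes (13 summed) stood at 5425 CPM in the cells with 20 or more member UMIs and at 14769.8 CPM in those with 0 to 2 (14519.7 CPM in the 122 cells with 3 to 19), macrophage genes at 4.88 and 13.5 CPM, and thyrocyte genes at 254 and 1673 CPM. No doublet caller was run, the authors' treatment of doublets is not given in the sources used here, and the part of doublets in these values was not tested.

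Replication and mitosis genes were found in the same thymocytes. Of T2 cells, 89 held 3 or more UMIs of the 13 replication genes, 163 held 3 or more of the 23 G2 and mitosis genes, and 85 held both. Replication genes summed to 3667 CPM in the cycling cells and to 139 CPM in the other T2 cells. For the G2 and mitosis genes the values were 11317 CPM and 332 CPM, as the choice of cells by these genes requires.

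The replication genes were each higher per UMI in T2 than in the thyroid-resident labels together, by 6.27-fold (Pcna) to 191-fold (Rrm2) with a median of 10.9-fold over the 13. Pclaf, the Pcna-associated factor, was the highest of them, at 487 CPM in T2 cells of RW 2, 558 in aJ1aJ2 3 and 536 in aJ1aJ2 4. All 3 samples lay far above the 3.28 CPM of the thyroid-resident cells. Rrm2, the regulated subunit of ribonucleotide reductase, stood at 319, 345 and 138 CPM in the same order and at 1.65 CPM in thyroid-resident cells. Its partner Rrm1 is less specific, at 126 CPM in T2 and 15.5 CPM in thyroid-resident cells. Pcna stood at 293, 294 and 276 CPM in T2, at 45.5 CPM in thyroid-resident cells, and had a UMI in 16.3% of T2 cells and 20.0% of thyroid-resident cells. Mcm5 of the replicative helicase stood at 114, 122 and 61.3 CPM, and at 4.84 CPM in thyroid-resident cells. Fen1, the flap nuclease of lagging strand synthesis and the lowest of the group, stood at 55.2, 54.3 and 38.3 CPM. The other helicase subunits Mcm2, Mcm3, Mcm4, Mcm6 and Mcm7 lay between 87.3 CPM (Mcm4) and 192 CPM (Mcm7) over all T2 cells and between 8.97 CPM (Mcm2) and 19.7 CPM (Mcm6) in thyroid-resident cells. The DNA ligase Lig1 stood at 163 CPM in T2 and 16.1 CPM in thyroid-resident cells, and Tyms at 166 and 11.8 CPM.

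The G2 and mitosis genes were higher per UMI in T2 than in the thyroid-resident labels by a median of 69.0-fold over all 23, and 21 of the 23 had most of their UMIs in T2, up to 86.6% for Ccnb1. Top2a, which untangles DNA, stood at 759.5 CPM in RW 2, 733 in aJ1aJ2 3 and 352 in aJ1aJ2 4, against 3.99 CPM in thyroid-resident cells. Mki67, the antigen of the Ki-67 stain, stood at 369.6, 335 and 84.3 CPM against 2.57 CPM, and had a UMI in 13.1% of T2 and 0.396% of thyroid-resident cells. Ube2c stood at 343, 456 and 91.9 CPM against 2.90 CPM. Over all T2 cells the survival and spindle factor Birc5 stood at 333 CPM, Nusap1 at 271, the kinetochore proteins Cenpf and Cenpe at 192 and 144, Cdk1 at 176, the spindle motor Kif11 at 157 and Cdc20 at 92.9. In thyroid-resident cells these 7 genes stood between 1.21 CPM (Kif11) and 2.88 CPM (Birc5 and Cenpf). Of Top2a, Mki67 and Ube2c, the T2 cells of aJ1aJ2 4 were lowest of the 3 samples, and that sample had 39 T2 cells.

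The lowest members in T2, by mean over its samples with 20 or more cells, were Bub1b, Fen1 (given above), Bub1, Plk1 and Aurka. Ccnb1, the mitotic cyclin, stood at 85.6, 105 and 15.3 CPM in RW 2, aJ1aJ2 3 and aJ1aJ2 4. The checkpoint kinase Bub1b stood at 78.9, 83.5 and 15.3 CPM, and Bub1 at 48.5, 50.3 and 15.3 CPM. Plk1, a kinase of mitotic entry, stood at 37.2, 43.0 and 7.66 CPM, and the spindle pole kinase Aurka was the lowest member at 36.1, 21.9 and 7.66 CPM. Both 7.66 values are worth 1 UMI. Bub1, Ccnb1 and Mki67 had 0 UMIs in EC1.

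The members detected in the most thyroid-resident cells were Hmgb2, Pcna, Smc4 and Mcm6 (32.4%, 20.0%, 14.0% and 10.2% of cells with a UMI). Hmgb2, a chromatin protein, was the highest member in T2, in T1, in M and in the thyroid-resident labels together, at 2700.0, 3427 and 1678 CPM in T2 of RW 2, aJ1aJ2 3 and aJ1aJ2 4 and at 114 CPM in thyroid-resident cells. Smc4 of the condensin complex stood at 549, 525 and 421 CPM in T2 and at 33.4 CPM in thyroid-resident cells. Its partner Smc2 stood at 266, 257 and 115 CPM in T2, with 13.7 CPM in thyroid-resident cells. Hmgb2, Smc4, Mcm7 and Pcna made up 56.1% of the members' UMIs in thyroid-resident cells and 40.2% in T2. Of the 1812 thyroid-resident cells with 3 or more member UMIs, 1385 (76.4%) had none from the 20 mitotic members. In T2 88 of 208 had none. The 20 were chosen by levels outside T2 and depth was not matched, so these shares do not compare the labels.

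**Figure D3:**
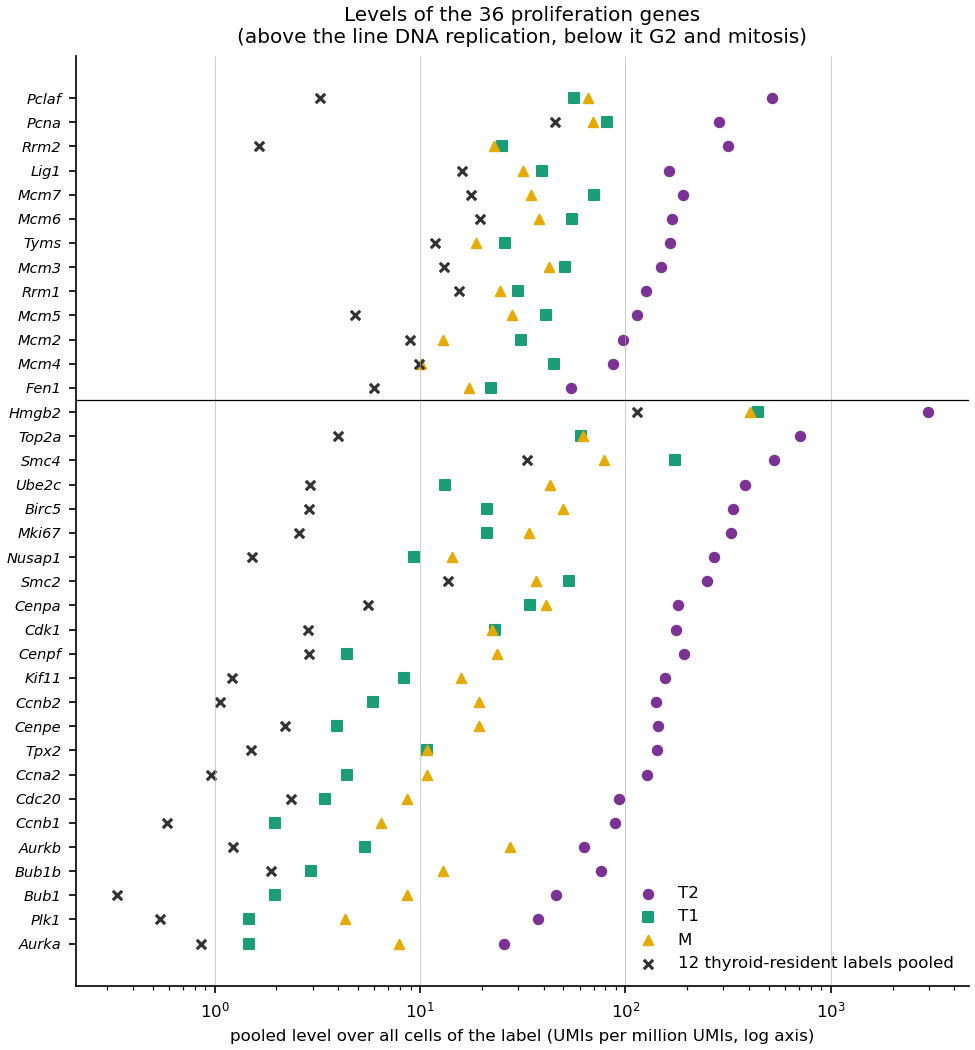
Each row is 1 member, with its level (CPM, log axis) in T2, T1, M and the 12 thyroid-resident labels pooled; replication genes are above the line and G2 and mitosis genes below it, both ordered by their mean over T2 samples. Each of the 36 lies furthest right in T2, and the gap to the thyroid-resident labels is widest for genes such as Rrm2 and Top2a and narrowest for Pcna.

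The count by the 20 mitotic members leaves out 3 genes common in thyroid-resident cells, so a lower number there follows in part from the choice of the 20 and is given to locate cells, not to compare labels. There were 89 T2 cells with 3 or more mitotic UMIs (14.3%) and 33 thyroid-resident cells of 7064, with 11 in M, 7 in Th1, 5 in EC3, 4 in EC1, 2 each in Th2 and SM and 1 each in Th3 and P. Without Ube2c and Nusap1, left out after their levels in Eryth2 were seen, the number was 2 in EC1 and 4 in EC3. In the other thyroid-resident labels with such cells it stayed as it was. Of the 4 EC1 cells, 2 held 7252 and 9725 erythroid marker UMIs, 1 held 191 macrophage marker UMIs and 1 held 58 thymocyte marker UMIs, beside 53 to 349 endothelial marker UMIs, and the part of mixed droplets was not tested. EC2, EC4, F and S had 0. Taken as 3 divided by the number of cells, not as an exact interval, this allows up to 0.733%, 0.287%, 0.558% and 1.55% of their cells to reach this count. It does not limit the share of dividing cells, since the median cell held 1045.5 UMIs in EC4 and 2215 in S. By sample the thyroid-resident number was 6, 8 and 6 in RW 1 to RW 3, 4, 7 and 1 in aJ1aJ2 1, 3 and 4, and 0, 0 and 1 in aN1aN2 1 to aN1aN2 3. The median thyroid-resident cell held 3714 to 3850.0 UMIs in RW, 2643 to 4032.5 in aJ1aJ2 and 1594 to 1948 in aN1aN2. The parts of depth and of the mix of labels in these numbers were not tested.

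With 10 or more mitotic UMIs, 73 T2 cells and 8 thyroid-resident cells remained, the latter being 5 M, 2 Th1 and 1 EC3 cell. The EC3 cell (RW 2, 120349 UMIs in all) held 31 mitotic UMIs over 13 genes, and its markers went against its endothelial label, with 1 endothelial, 367 fibroblast and 23 thymocyte marker UMIs. Both Th1 cells were in RW 3. They held 395 and 190.0 mitotic UMIs over 20 and 19 of the 20 genes, among them 38 and 13 of Mki67, and together 585 of the 607 mitotic UMIs of the 161 Th1 cells of that sample. Their totals were 93702 and 131347 UMIs, against a median of 22558, and they held 3580 and 8372 thyrocyte marker UMIs along with 385 and 97 endothelial marker UMIs. With them the mitotic members stood at 116 CPM in Th1 of RW 3, and without them at 4.39 CPM, below the 5.34 CPM of RW 2 and 9.55 CPM of RW 1.

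The 5 M cells with 10 or more mitotic UMIs came from RW 2 (3 cells), RW 3 and aJ1aJ2 3. Macrophage genes (C1qa, C1qb, C1qc, Csf1r and Adgre1 summed) stood at 177 CPM in the 3 RW 2 cells and at 294 CPM in the aJ1aJ2 3 cell, against 13077 CPM in the other 373 M cells. In the RW 3 cell they stood at 14381 CPM. The antigen presentation genes Cd74, H2-Aa, H2-Ab1 and H2-Eb1, chosen after their values were seen, summed to 62363 CPM in the 5 cells and to 61648 CPM in the other M cells, against 27.1 CPM in T2. The 7 thymocyte genes Rag1, Rag2, Dntt, Ptcra, Cd8b1, Themis and Arpp21 had 0 UMIs in each of the 5 cells. The 5 cells thus held the antigen presentation genes at the level of the other M cells, and 4 of them held the macrophage genes at a low level.

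In T1, 11 cells had 3 or more mitotic UMIs and 5 of these also had 2 or more UMIs of the 7 thymocyte genes. The mitotic members summed to 239.8 CPM in T1. In Eryth2, 84 of 1092 cells had 3 or more mitotic UMIs, and 0 did without Ube2c and Nusap1. Ube2c and Nusap1 held 503 and 159 of the 708 member UMIs of Eryth2, at 58.5 and 18.5 CPM, and the 13 replication genes together stood at 1.74 CPM.

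Most genes of a wider cell cycle list were also higher in cycling thymocytes. In each of the 3 samples with 20 or more T2 cells, cycling cells were compared with the remaining T2 cells, as a description with no test, since the classes were made from the same cells. With no filter on level, 80 of the 90 genes of that list were higher in cycling cells in all 3 samples, as were 2031 of the 15901 genes detected outside the members (12.8%). Among the 3622 genes outside the members with 50 CPM or more in either class, the 10 with the highest ratio were Tuba1b (tubulin, 5.80 ± 1.00 SD, n = 3), Spc24 (kinetochore, 4.71), Cdca8 (Aurkb complex, 4.53), Cdca3 (4.29), Pbk (mitotic kinase, 4.05), Plac8 (4.05), Cks2 (Cdk subunit, 4.04), Tipin (replication fork, 3.99), Slbp (histone mRNA binding, 3.95) and Cks1b (3.89). Of these 10, 7 belong to the wider list, as do 63 of the 3622 genes compared. Genes at 0 in the other cells passed the filter only through the cycling cells, so this count is a description. Spc24, Cdca3, Pbk and Plac8 were at 0 in the other cells of all 3 samples, so their ratios are set by the pseudocount of 10 CPM: for Spc24 the value was 7.98 with 1 CPM, above the 7.16 of Tuba1b, and 2.59 with 50 CPM. Thinned to 2000 UMIs, the ratios were 5.33 for Tuba1b, 4.72 for Spc24, 2.65 for Plac8 and 2.58 for Tipin.

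Several genes of thymocyte identity were lower in the cycling cells taken as one class, in which the 13 thymocyte genes were lower in the 86 cells with 20 or more member UMIs and near the other cells in the remaining 122. Log2 ratios were -1.79 for Cd4, -1.76 for Rag1, -1.56 for Themis, -1.41 for Cd8a and -1.23 for Cd8b1, each negative in all 3 samples. Dntt differed little, at -0.16 ± 0.22 (SD, n = 3), and Ptcra, the surrogate chain of the receptor before its alpha chain, stood at 0.69 ± 0.44. The 10 lowest genes were Pth, Gm44175, Slc6a19, Ifi209, Gimap8, Gm15513, Wdr78, Tg, Cd52 and E430014B02Rik, from -2.72 (Pth) to -2.34 (E430014B02Rik). Their order depends on the settings. Pth stood at -4.50 with a pseudocount of 1 CPM, at -1.29 with 50 CPM and at -1.72 thinned to 2000 UMIs. With 50 CPM Tg was the lowest of the 10, at -2.35. Pth, the parathyroid hormone, and Tg, the thyroglobulin of thyrocytes, are made by cells other than thymocytes, and Tg stood at 402 CPM in cycling and 2771 CPM in other T2 cells. With all cells thinned to 2000 UMIs the ratios were -1.02 for Rag1, -1.16 for Cd4, -1.18 for Themis, -0.92 for Cd8a and -0.64 for Cd8b1, while Rag2 turned from -0.61 to 0.85, Dntt stood at 0.18 and Ptcra at 0.28.

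**Figure D4:**
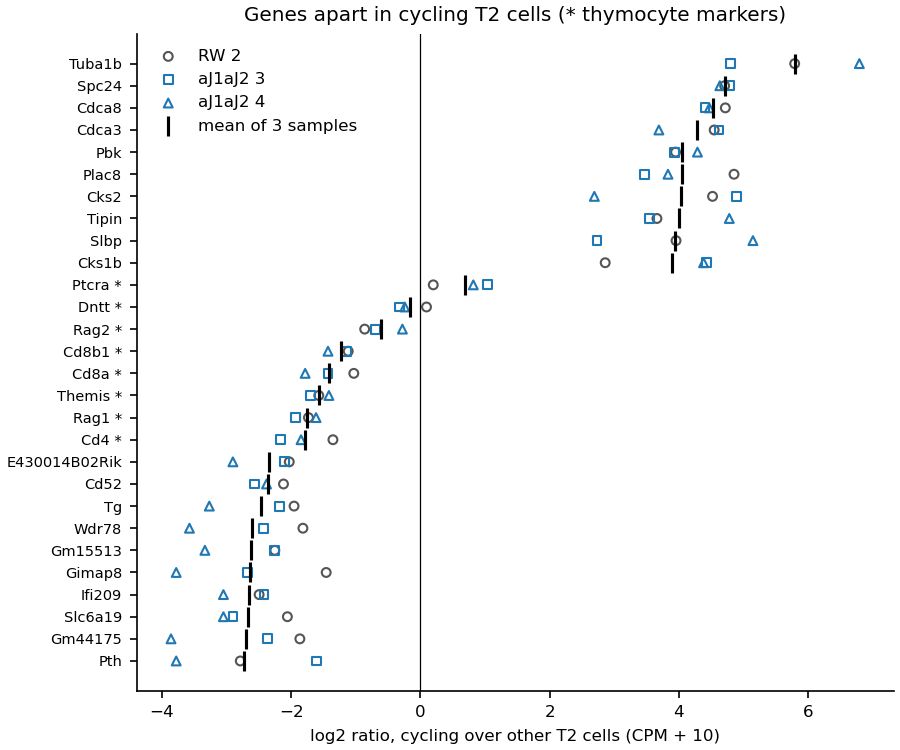
Log2 ratio of level in cycling over other T2 cells (CPM plus 10) for the 10 highest and 10 lowest genes outside the list and 8 thymocyte markers (asterisks), with open symbols for the 3 samples and a bar for their mean. The 10 highest genes, 7 of them in the wider cell cycle list, lie between 3.89 and 5.80, Dntt lies near 0, and Rag1 and Cd4 lie below -1.7.

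Treatment was tested in labels with at least 20 cells in at least 2 samples of each group compared, on counts summed per sample. The question was whether blocking Notch ligands or receptors changed proliferation genes in cells of the thyroid. The replicates are pools of mice, so p-values measure the spread between these pools. The comparisons share the RW samples, and the aN1aN2 samples form a sample-number series of their own, so receptor blockade and that series cannot be told apart.

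Under ligand blockade no member passed the test. Over 12 labels 52 pairs of member and label passed the filter on low counts and 0 had an adjusted p under 0.05 by edgeR's quasi-likelihood test, against 0.662% of all 46530 gene and label pairs. By label, the share of all genes called was 1.43% in EC1, 1.91% in EC2, 0.0618% in EC3, 0.903% in EC4, 0.358% in Eryth2, 0.579% in F and 0.612% in Th1, and 0 genes were called in the other 5. DESeq2 also called 0. The pair nearest to the threshold was Hmgb2 in EC1, at 83.1, 99.3 and 92.7 CPM in RW 1 to RW 3 and 91.3, 160 and 137 CPM in aJ1aJ2 1, 3 and 4. The aJ1aJ2 1 value lay within the RW range, and the log2 fold change was 0.54 (SE 0.16, edgeR adjusted p = 0.112, or 0.0052 to 0.694 over 14 alternatives, the lowest without aJ1aJ2 1). Members tested in EC1 had a median log2 fold change of 0.34, with 11 of 15 positive, against 0.01 for all 9369 genes tested there. In Th1 the median of the 11 tested was 0.06 against 0.01 over all 10627 genes. Other cell cycle genes gave 0 calls among 108 pairs.

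Under receptor blockade 5 of 38 pairs over 9 labels changed (13.2% of the pairs), against 19.9% of all 39430 gene and label pairs. The changes went both ways, with 3 pairs up in EC1 and F and 2 pairs down in Th1. Of all pairs 10.0% rose and 9.87% fell. By label, the share of all genes called was 34.4% in Th1 (2 of 11 members), 17.8% in EC1 (1 of 15) and 19.8% in F (2 of 3). In the labels where 0 members were called it was 15.5% in EC2, 5.91% in EC3, 21.1% in EC4, 7.69% in Eryth1, 8.60% in Eryth2 and 5.03% in Th3. DESeq2 also called 5 pairs, without Smc2 in Th1 (adjusted p = 0.0994) and with Ube2c in Eryth2 (log2 fold change -0.81, DESeq2 adjusted p = 0.035; by edgeR -0.78, adjusted p = 0.0628). Without aN1aN2 1 the number was 0, and without RW 2, RW 3 or aN1aN2 2 it was 3 each. The shares of all genes called by DESeq2 and in these fits are not given here, so these numbers have no background beside them.

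The rises were in Mcm7, a helicase subunit, and Hmgb2. In fibroblasts of label F, named here from the fibroblast gene Dcn (23949 CPM), Mcm7 stood at 19.2, 10.1 and 19.01 CPM in RW 1 to RW 3 and at 69.4, 39.8 and 41.9 CPM in aN1aN2 1 to aN1aN2 3. The groups did not overlap, on 4 to 5 UMIs in each RW sample and 4 to 11 in each aN1aN2 sample. Its log2 fold change was 1.75 (SE 0.49, edgeR adjusted p = 0.015). Hmgb2 in F stood at 34.6, 42.7 and 33.3 CPM in RW and at 151, 79.6 and 94.3 CPM in aN1aN2, again without overlap, a change of 1.54 (SE 0.37, edgeR adjusted p = 0.0055). In EC1, Mcm7 stood at 17.95, 12.3 and 14.1 CPM in RW and at 36.6, 21.5 and 38.2 CPM in aN1aN2, a change of 1.11 (SE 0.33, edgeR adjusted p = 0.021). Neither Pcna in F (log2 fold change 0.37, SE 0.37) nor Pcna in EC1 (-0.06, SE 0.23) passed. Under ligand blockade the log2 fold changes were 0.66 for Mcm7 in F, 0.59 for Hmgb2 in F and 0.47 for Mcm7 in EC1, none past the threshold. The median cell held 5561 to 10026 UMIs in F of RW and 2295 to 3864 in aN1aN2, and 4679 to 4968 in EC1 of RW and 2518 to 3533.5 in aN1aN2, and the part of depth in these rises was not tested. Over the alternatives the edgeR or DESeq2 adjusted p ranged from 0.015 to 0.155 for Mcm7 in F, from 0.0022 to 0.0862 for Hmgb2 in F and from 0.016 to 0.135 for Mcm7 in EC1.

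The falls were in thyrocytes. Tyms, the thymidylate synthase, stood at 12.6, 16.2 and 19.1 CPM in Th1 of RW 1 to RW 3 and at 4.39, 5.45 and 13.3 CPM in aN1aN2 1 to aN1aN2 3, so that aN1aN2 3 lay within the RW range. It fell by 1.25 on the log2 scale (SE 0.35, edgeR adjusted p = 0.013). Smc2 stood at 9.54, 4.05 and 15.2 CPM in RW and at 6.04, 4.24 and 2.42 CPM in aN1aN2, with overlap, and fell by 1.21 (SE 0.44, edgeR adjusted p = 0.047). Without the 8 thyroid-resident cells of 10 or more mitotic UMIs the change was -0.83 (edgeR adjusted p = 0.123). Without RW 3 it was -0.73 (adjusted p = 0.273). Over 13 alternatives the edgeR or DESeq2 adjusted p ranged from 0.0078 to 0.506 for Smc2, which kept its call in 4, and from 0.00044 to 0.103 for Tyms, which kept it in 10. The other 9 members tested in Th1 did not pass, among them Pcna (-0.12, SE 0.14) and Hmgb2 (0.16, SE 0.14). Th1 cells differed in depth between the groups, with a median of 12535 to 22558 UMIs in RW, 9968 to 15314 in aJ1aJ2 and 5737 to 7558 in aN1aN2, and the part of depth in these calls was not tested.

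**Figure D5:**
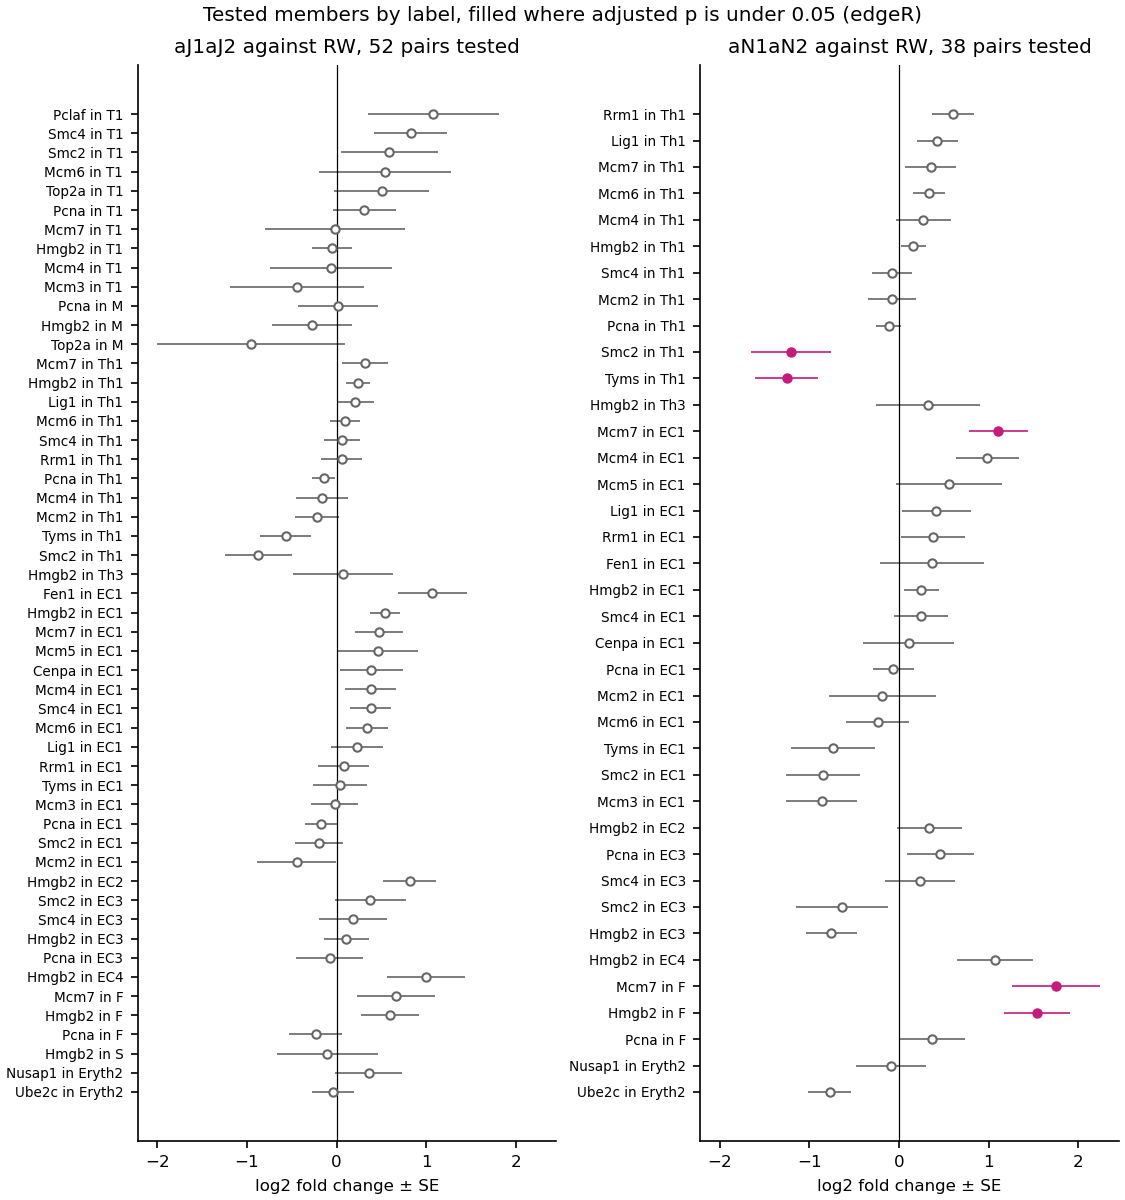
Log2 fold change ± SE from edgeR for each member that passed the filter in each label, under aJ1aJ2 (left, 52 pairs) and aN1aN2 (right, 38 pairs) against RW; filled points had an adjusted p under 0.05. There are 0 filled points on the left and 5 on the right, 3 of them above 1 and 2 below -1.

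Few mitotic members passed the filter: under receptor blockade they were Cenpa in EC1 and Ube2c and Nusap1 in Eryth2. With no filter, 333 pairs were tested under ligand blockade and 8 were called (against 0.855% of all pairs so tested), 7 of them lower, of which 6 were in Th1 (Birc5, Cdk1, Mki67, Top2a, Tpx2 and Ube2c) and 1 was Ube2c in M. Leaving out in addition the 8 thyroid-resident cells with 10 or more mitotic UMIs left 1 call, Hmgb2 in EC1. Under receptor blockade the counts were 16 of 242 without the filter (against 6.23% of all pairs), 13 of them lower, and 5 when those cells were left out too. For Top2a in Th1 the ligand blockade change went from -3.96 (edgeR adjusted p = 3.1e-07) to -0.80 (adjusted p = 0.837). Of the 8 cells, 2 were Th1 cells, both of RW 3, so the 6 ligand blockade calls in Th1 were lost without 2 cells. Under receptor blockade Mcm5 (-1.97, edgeR adjusted p = 0.0181) and Tyms (-1.22, adjusted p = 0.0013) in Th1 were still called without them.

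Other cell cycle genes under receptor blockade gave 21 calls among 85 pairs, against 19.9% of all pairs, with 3 higher and 18 lower. In Th1, 11 of 29 fell and 0 rose, while 17.3% of all genes tested there fell. The 5 with the smallest adjusted p over all labels were Tuba1b and Cks1b in Th1 (log2 fold changes -1.38 and -2.10), Gmnn, the licensing inhibitor geminin, and H2afz in Th1 (-1.10 and -0.59), and Stmn1 in EC1 (0.97). Tuba1b stood at 265, 295 and 262 CPM in Th1 of RW 1 to RW 3 and at 104, 86.0 and 132 CPM in aN1aN2 1 to aN1aN2 3, without overlap (edgeR adjusted p = 4.7e-05). The 13 replication genes of the member list summed in Th1 to 146 to 159 CPM in RW and to 147 to 159 CPM in aN1aN2.

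The share of cycling thyrocytes was lower under receptor blockade by count. It was 74.4%, 70.2% and 80.7% of Th1 cells in RW 1 to RW 3, 72.2%, 66.8% and 60.2% in aJ1aJ2 1, 3 and 4, and 36.7%, 41.4% and 43.5% in aN1aN2 1 to aN1aN2 3. The aN1aN2 samples lay below all others. Per UMI the groups overlapped, since the 36 genes summed to 284 to 437 CPM in RW and to 298 to 312 CPM in aN1aN2. The overlap came from RW 3 alone (437 CPM), whose sum includes the 2 cells with 606 and 308 member UMIs. Overlap without these 2 cells was not tested. Thinned to 2000 UMIs, the share was 0.556% to 3.75% in RW and 1.79% to 3.29% in aN1aN2. Among Th1 cells of 10000 to 20000 UMIs, 107 of 148 RW cells (72.3%), 98 of 125 aJ1aJ2 cells (78.4%) and 43 of 53 aN1aN2 cells (81.1%) were cycling, and among those of 5000 to 10000 UMIs 39.7%, 37.2% and 28.2% were.

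Over all thyroid-resident labels the share was 31.8% ± 0.949 (SD, n = 3) in RW, 28.1% ± 6.93 in aJ1aJ2 and 15.5% ± 1.43 in aN1aN2. The mix of labels differed between the groups. For example, EC4 gave 96, 63 and 109 of the 909, 631 and 902 cells of RW 1 to RW 3. In aN1aN2 1 to aN1aN2 3 it gave 178, 151 and 113 of 725, 611 and 434. The part of this mix in the shares was not tested. At 2000 UMIs it was 3.42% to 3.94% in RW, 4.62% to 5.71% in aJ1aJ2 and 2.89% to 3.80% in aN1aN2. In this order RW and aN1aN2 overlapped and aJ1aJ2 lay above both. EC1 gave 375 to 380.5 CPM of the 36 genes in RW, 410.5 to 496 in aJ1aJ2 and 347 to 475 in aN1aN2. These shares and sums are scores over the members and carry no test.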

How the data were processed

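Droplet libraries (10x, 3' end) of 9 thyroid cell samples were used. The authors deposited raw UMI counts per gene and cell with 1 label per cell; Cell Ranger and GRCm38 are named in the submitters' processing notes, and filters on cells and doublets are not given in the sources used here. Annotation lines shifted by a comma inside a field (2619) were corrected. Counts were summed per label and sample. Labels with 20 or more cells in at least 2 samples of each group compared were tested with edgeR 4.0.16 (quasi-likelihood, filterByExpr, TMM, 3 group means) in R 4.3.3, with Benjamini-Hochberg adjustment over all genes of a label and calls at 0.05. DESeq2 1.42.0 was an alternative, as were no filter, a replicate block and leaving out samples or cells. The fit was also run on counts simulated from Th1, with the outcome not given here. Thinning used 500 and 2000 UMIs per cell, and ratios of levels used a pseudocount of 10 CPM. Named genes were the members, the other cell cycle genes with the 5 smallest adjusted p, and the 10 highest and 10 lowest genes in cycling T2 cells. The members and all lists were chosen with earlier results of these data known. RW 3 and aJ1aJ2 1 carry no number in their titles and were each given a number not used by another sample of their group.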

Additional observations from a re-analysis of the deposited data

Results flagged for a closer look

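Cell cycle genes outside the member list moved in opposite directions under receptor blockade in different labels, and these differences between labels were not tested. H2afz, a histone variant, rose in EC1 with a log2 fold change of 0.47 and fell in Th1 (-0.59). Stmn1, a microtubule regulator, rose in EC1 (0.97) and in EC4 (1.61) and fell in Th1 (-1.21).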

How the results depend on the processing

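No paired analysis was possible because the aJ1aJ2 and RW titles share fewer than 2 replicate numbers; the sample-number series was fitted as a covariate instead. For aN1aN2 the numbers were not taken as pairs. Deviations of same-numbered Th1 samples correlated at 0.02 and -0.01 and those of other-numbered samples at 0.10 and 0.008. These are too few, and from 1 label, to settle whether the samples are paired. The replicate block, on RW 1, RW 2, aN1aN2 1 and aN1aN2 2, called 4 members against 5. It called Hmgb2 in F and Tyms in Th1, did not call Mcm7 in EC1 (adjusted p = 0.0966) or Smc2 in Th1 (-0.44, adjusted p = 0.506), gave no value for Mcm7 in F, and called Mcm3 in EC1 (-1.77, adjusted p = 0.002) and Rrm1 in Th1 (0.82, adjusted p = 0.0204). Members called under aJ1aJ2 numbered 0, with 8 without the filter, 1 when the cells with 10 or more mitotic UMIs were also left out (chosen after seeing the data), and 0 to 1 leaving out 1 sample; other cell cycle genes numbered 0, 11, 3, 2 with the sample-number series as a covariate, and 0 to 4 leaving out 1 sample (4 without aJ1aJ2 1, 3 without RW 3). Under aN1aN2, members numbered 5, with 3 at 50 or more cells per sample, 16 without the filter and 0 to 5 leaving out 1 sample (0 without aN1aN2 1, 3 each without RW 2, RW 3 or aN1aN2 2); other cell cycle genes numbered 21, with 14 to 20 leaving out 1 sample (14 without aN1aN2 2). The mean share of cycling T2 cells (32.5%) was 48.9% at 2 or more UMIs, 18.9% at 5 or more, 17.1% without Hmgb2, Smc4, Mcm7 and Pcna, 14.8% by the 20 mitotic members, 40.8% with 1 or more UMIs after thinning to 500 (depth and count both differ) and 37.5% with 3 or more after thinning to 2000, and 29.9% to 34.2% leaving out 1 sample. In the same order, thyroid-resident RW cells (31.8%) gave 44.7%, 17.8%, 14.6%, 0.864%, 15.8% and 3.62% (31.3% to 32.1%); aJ1aJ2 (28.1%) gave 40.7%, 14.3%, 10.1%, 0.526%, 15.4% and 5.14% (25.8% to 32.1%); aN1aN2 (15.5%) gave 27.2%, 8.03%, 5.24%, 0.0768%, 16.1% and 3.36% (14.7% to 16.1%). The cause was not tested. The shares of all genes called in the replicate block and when 1 sample was left out are not given here.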
